A study of Homo sapiens with 6 samples.

Results

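The genes described here are 31 targets of the transcription factor p53, grouped as targets outside apoptosis. They were taken by symbol from the deposited gene table, leaving out CDKN1A and the BCL2 family. The grouping rests on that omission, so some members may also act in apoptosis. Of the 31, 30 had a row among the 17579 genes, and 28 had enough reads to be tested among 13138 genes. SPATA18, which acts in mitochondrial quality control, is not analysed here. TP53I11 and PHLDA3 had rows but too few reads to test.

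Libraries came from LP-1, a human multiple myeloma line with the t(4;14) translocation. Cells had been infected with virus carrying a guide RNA against AURKA, called sgAURKA (3 libraries), or a guide without a target, labelled NT Control and titled Vector (3 libraries). The sgAURKA cells are named a knockout of Aurora A in the labels, which say neither whether they were 1 clone or a pool nor when after infection RNA was taken. Both groups carried a virus and grew with the same serum.

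p53 is held at low levels by MDM2, a ubiquitin ligase, and by its partner MDM4. When DNA is damaged, kinases free p53 from MDM2, and it binds paired response elements in DNA and switches on genes for cell cycle arrest, DNA repair, metabolism and its own inhibition. Aurora A, the mitotic kinase made from AURKA, is known to phosphorylate p53 and to promote its breakdown through MDM2. A comparison of cells with and without AURKA can therefore be read at the RNA of these targets.

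The 6 libraries held 17724174 to 18523594 expected counts each, so that 1 CPM (a count scaled to the library total) stood for about 18 reads. AURKA itself had 113 to 119 CPM in sgAURKA libraries and 189 to 195 CPM in Vector libraries, a log2 fold change of -0.74 (SE 0.0488; edgeR quasi-likelihood test, adjusted p = 1.55e-06). An RNA level does not measure how many alleles were cut. The labels call the cells B lymphoblasts. The 8 plasma cell markers were all expressed, from SDC1 at a mean of 87.7 CPM in sgAURKA and 94.0 CPM in Vector libraries to JCHAIN at 5333 CPM in sgAURKA and 5332 CPM in Vector libraries. Of these 8, CD38 was higher in sgAURKA libraries (274 CPM against 210 CPM in Vector libraries, log2 fold change 0.38, edgeR adjusted p = 4.16e-04) and none was lower at an adjusted p of 0.05; FGFR3, a gene of the translocation, was lower (log2 fold change -0.24, edgeR adjusted p = 0.0424). Markers of T cells and erythroid cells were too low to test, and the myeloid, stromal and epithelial markers that could be tested reached at most 5.19 CPM in sgAURKA and 4.86 CPM in Vector libraries (ACTA2), with none called. What part these differences have in the results was not tested. Vector libraries 2 and 3 stood apart from each other. The correlation across genes of a library's deviation from the mean library with the GC content of the transcript was 0.56 in Vector 2 and -0.59 in Vector 3, against -0.26 to 0.34 in the sgAURKA libraries and 0.10 in Vector 1. Values without a library, or with this GC trend taken out as an offset, are therefore given beside many of the results.

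The binding element of p53 is 2 half-sites of 10 bases, side by side or 1 base apart. In RefSeq promoter windows (GRCh38.p14, from 250 bases before to 50 after each start), a p53 consensus element with at most 3 mismatches was found in 2.38% of 35116 windows, or in 2.91% of 27305 genes. Each half-site had to keep the C and the G of its core, so mismatches could fall on the other bases only. The pattern reads the same on both strands, so both were searched at once. Among the members, 27 had a window (SPATA18 included), and 6 of these genes held such an element: DDB2, AEN, MDM2, FDXR, RPS27L and SESN1. Their elements are shown in capitals because these members are the ones with a readable p53 site beside a start. A match describes letters only and does not show that p53 was bound in LP-1 cells. The first 5 lines give the 110 bases before the start on the gene's own strand, and the last gives the DDB2 element with the fewest mismatches, which lies 6 to 26 bases after the start; another with 1 mismatch overlaps it.
MDM2 (chr12:68808907-68809016, plus strand, second promoter in intron 1, 2 mismatches): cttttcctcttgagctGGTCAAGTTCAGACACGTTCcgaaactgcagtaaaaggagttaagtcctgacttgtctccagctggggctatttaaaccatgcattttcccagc
AEN (chr15:88621230-88621339, plus strand, 2 mismatches): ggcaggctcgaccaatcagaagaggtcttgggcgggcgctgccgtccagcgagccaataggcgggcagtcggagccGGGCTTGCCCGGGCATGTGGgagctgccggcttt
SESN1 (chr6:109008989-109009098, minus strand, 3 mismatches): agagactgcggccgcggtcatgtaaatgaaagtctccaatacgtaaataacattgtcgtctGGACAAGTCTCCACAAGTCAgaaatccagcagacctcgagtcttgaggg
FDXR (chr17:74872995-74873104, minus strand, 3 mismatches): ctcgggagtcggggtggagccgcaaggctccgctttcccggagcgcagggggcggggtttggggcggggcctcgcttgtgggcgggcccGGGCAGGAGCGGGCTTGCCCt
RPS27L (chr15:63157478-63157587, minus strand, 3 mismatches): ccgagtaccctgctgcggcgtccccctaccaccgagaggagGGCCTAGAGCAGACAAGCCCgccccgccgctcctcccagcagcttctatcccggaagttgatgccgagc
DDB2 (chr11:47214979-47214999, plus strand, 0 mismatches, half-sites 1 base apart): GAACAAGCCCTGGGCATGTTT

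None of the 28 tested members passed an adjusted p of 0.05 in either direction (edgeR quasi-likelihood test, Benjamini-Hochberg over all genes). Of all 13138 genes 2.03% passed, 0.959% higher and 1.07% lower, a share at which 0 of 28 does not set the members apart. At an unadjusted p under 0.05, MDM4 and BTG2 were higher and SESN1 was lower in sgAURKA libraries, 3 of 28 members beside 16.1% of all genes. The DESeq2 Wald test called 1 member, MDM4, beside 2.14% of all genes. The member log2 fold changes, sgAURKA over Vector, had a median of -0.05, with 11 above and 17 below 0, while the median over all genes was -9.4e-05. In absolute size the median was 0.10 for the members and 0.0893 for all genes. The 95% interval of the fold change lay within 0.5 on the log2 scale either way for 24 of the 28 members, and within 0.25 for 11. The 4 with wider intervals were SESN1, PLK2, EDA2R and SERTAD1. All sgAURKA libraries lay above all Vector libraries for MDM4, BTG2 and POLH and below them for SESN1, TP53I3, DDB2 and FDXR, 7 of 28 members beside 20.8% of all genes (10.5% above and 10.2% below). In bulk RNA, fewer cells with a transcript and less of it per cell cannot be told apart.

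**Figure D1:**
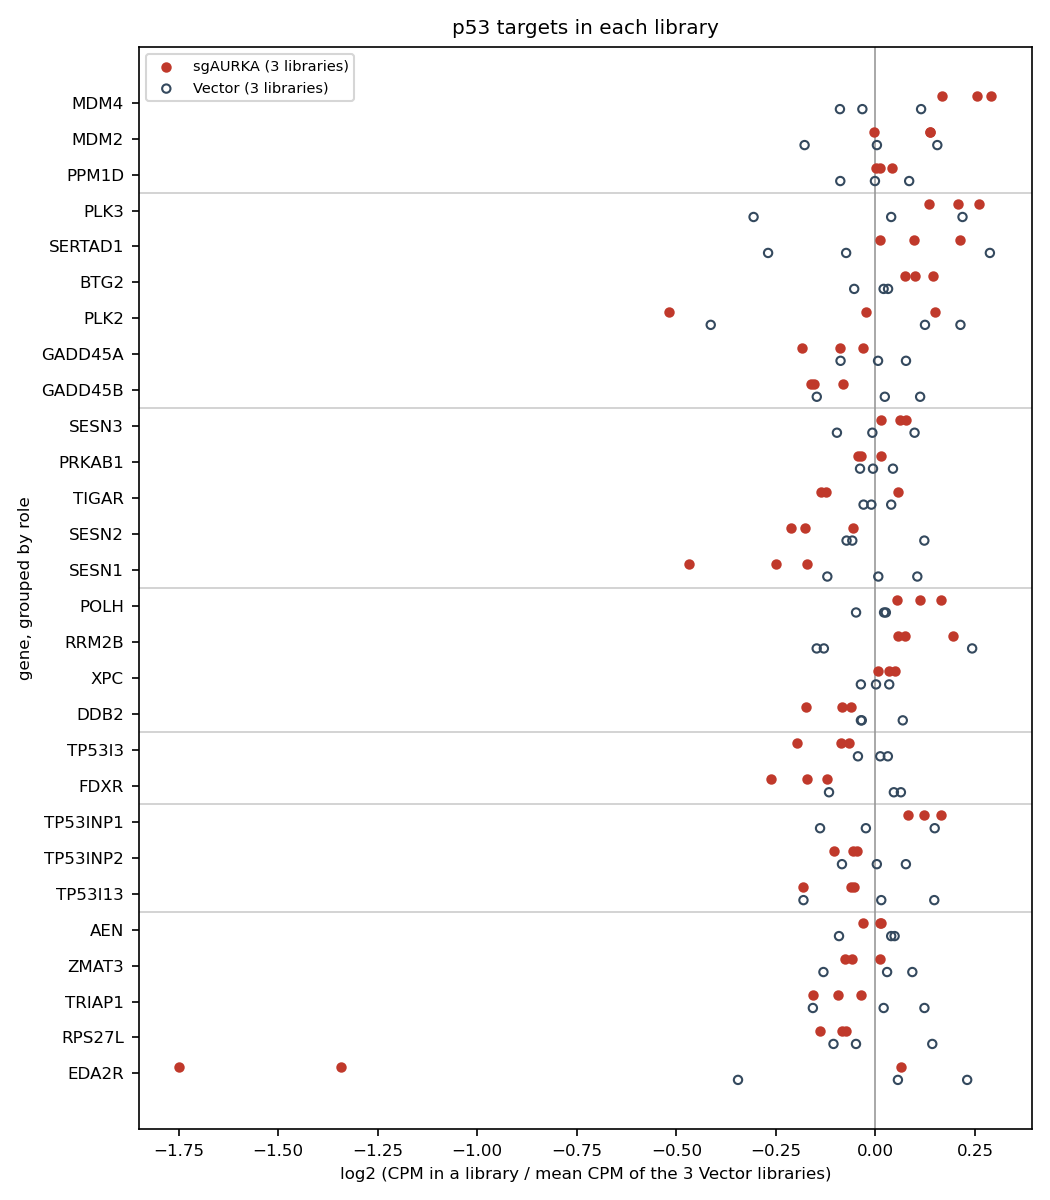
Normalised counts of the 28 tested p53 targets in each library, as log2 of the library's CPM over the mean CPM of the 3 Vector libraries. Filled points are sgAURKA libraries and open points Vector libraries, with genes grouped by role and lines between the groups. Most members lie within 0.25 of 0 in both groups, and EDA2R, near 1 CPM, spreads farthest.

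Among the genes that feed back on p53, MDM4 was the member with the smallest p. MDM4, which binds p53 and blocks its activity, had 79.5, 86.6 and 84.4 CPM in sgAURKA libraries, against 69.1, 66.5 and 76.6 CPM in Vector libraries. The lowest sgAURKA library was above the highest Vector library. The log2 fold change was 0.24 (SE 0.0628, 95% interval 0.10 to 0.37; edgeR adjusted p = 0.0731). Without Vector 3 it was 0.30 (adjusted p = 0.00172) at a background of 15.3% of genes called, and with the GC offset it was 0.19 (adjusted p = 0.00542) at 6.01% called (6.74% with the replicate number added to the model, and 2.93% with that number but no offset). MDM4 was positive in 17 of 17 settings, with an edgeR, DESeq2 or limma adjusted p between 0.00172 and 0.327.

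MDM2, the ligase whose gene p53 switches on in its best known feedback loop, had 60.1, 66.3 and 66.2 CPM in sgAURKA libraries. In Vector libraries MDM2 had 60.4, 53.2 and 67.1 CPM, so that the sgAURKA values lay inside the Vector range. Its log2 fold change was 0.09 (SE 0.0767, 95% interval -0.07 to 0.26; edgeR adjusted p = 0.585). It was 0.013 without Vector 2, 0.17 without Vector 3 (adjusted p = 0.0714) and 0.042 with the GC offset. PPM1D, the phosphatase WIP1 that switches off p53 signalling, averaged 29.6 ± 0.432 CPM in sgAURKA and 29.3 ± 1.75 CPM in Vector libraries (SD, n = 3 each), a log2 fold change of 0.02 (SE 0.0676, edgeR adjusted p = 0.922). The intervals of MDM2 and PPM1D leave room for changes of up to 0.26 and 0.16 upwards on the log2 scale.

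BTG2, an antiproliferative gene that p53 switches on, was the member with the highest FPKM. It had 511, 487 and 496 CPM in sgAURKA libraries, against 469, 473 and 446 CPM in Vector libraries. The groups did not overlap, at a log2 fold change of 0.11 (SE 0.0451, 95% interval 0.01 to 0.20; edgeR adjusted p = 0.262). With the GC offset, where 6.01% of all genes were called, the value was also 0.11 (edgeR adjusted p = 0.0458). GADD45B, a stress sensor that activates p38 and JNK signalling, had 79.3, 75.0 and 75.4 CPM in sgAURKA libraries and 85.3, 90.7 and 75.8 CPM in Vector libraries. Its groups overlapped only at Vector 3, and its log2 fold change was -0.13 (SE 0.0655; edgeR adjusted p = 0.338). Without that library, where 15.3% of all genes were called, it was -0.20 (edgeR adjusted p = 0.0145). Without Vector 2 it was -0.071 (adjusted p = 0.732), and with the GC offset -0.076 (adjusted p = 0.299).

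The other members of arrest and stress signalling overlapped between the groups. GADD45A, the DNA damage gene that binds PCNA and CDK1, averaged 7.08 ± 0.38 CPM in sgAURKA and 7.59 ± 0.432 CPM in Vector libraries (SD, n = 3 each). PLK3, a stress kinase, had 8.89 to 9.70 CPM in sgAURKA and 6.55 to 9.43 CPM in Vector libraries, a log2 fold change of 0.20 (SE 0.123; edgeR adjusted p = 0.434), or 0.33 without Vector 2 and 0.068 without Vector 3. PLK2 and SERTAD1 were near 1 and 2 CPM, about 18 reads per CPM, and their intervals of -0.73 to 0.53 and -0.36 to 0.57 hold changes in both directions.

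**Figure D2:**
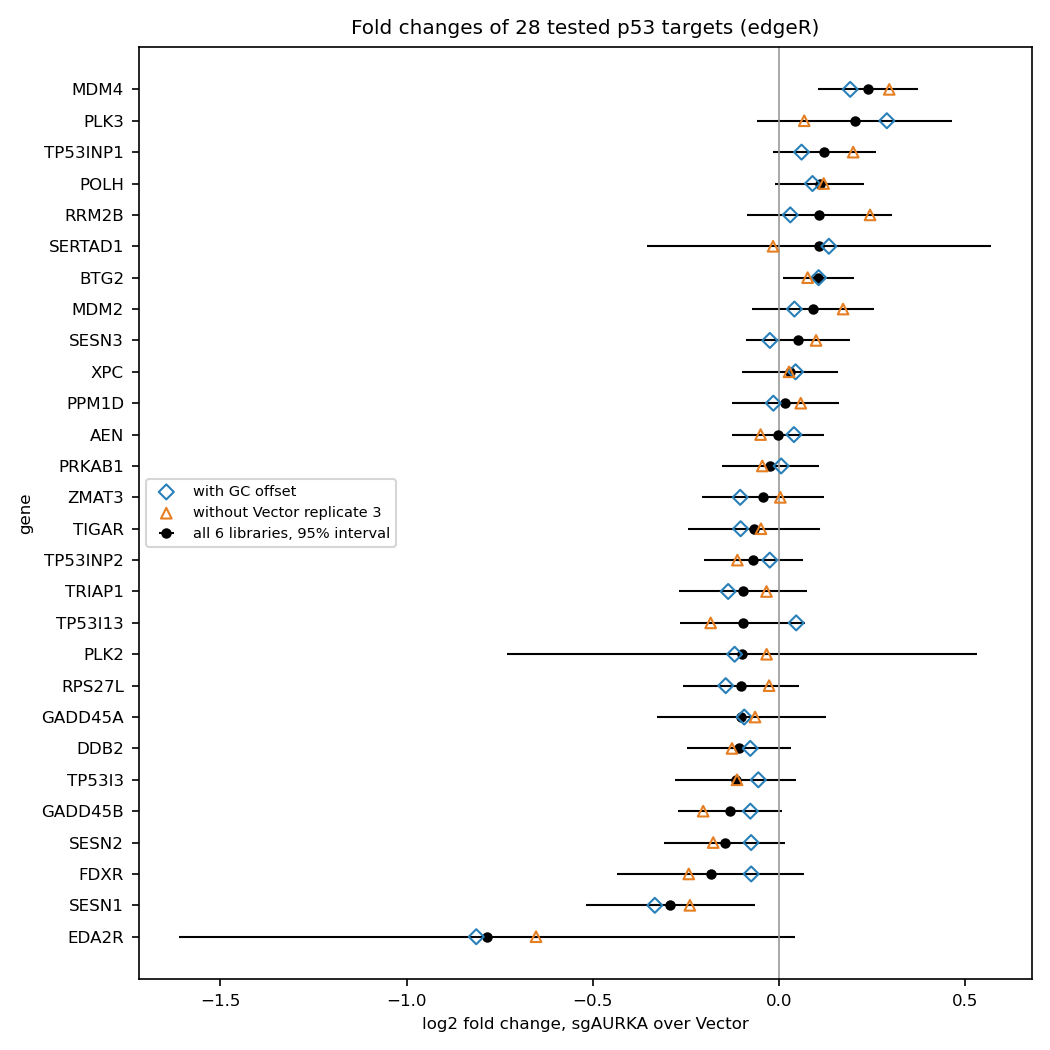
Log2 fold changes, sgAURKA over Vector, of the 28 tested p53 targets from edgeR, with 95% intervals (black), with the GC offset (diamonds) and without Vector replicate 3 (triangles). MDM4 lies highest at 0.24 and EDA2R lowest at -0.78, and both alternatives leave most members within 0.25 of 0.

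Sestrins restrain the growth kinase mTORC1 and help clear peroxides. SESN1, the classical p53 target among them, had 7.55, 9.27 and 8.78 CPM in sgAURKA libraries, against 10.5, 9.60 and 11.2 CPM in Vector libraries. All sgAURKA values were below all Vector values, the opposite side from MDM4 and BTG2. The log2 fold change was -0.29 (SE 0.106, 95% interval -0.52 to -0.07; edgeR adjusted p = 0.199). With the GC offset, where 6.01% of all genes were called, it was -0.33 (edgeR adjusted p = 0.0396). It was negative in 16 of 16 settings with a minimum of -0.35 and a maximum of -0.21. SESN2, which senses leucine and is also switched on by ATF4, had 26.2, 24.1 and 23.5 CPM in sgAURKA libraries and 25.9, 29.6 and 26.2 CPM in Vector libraries. One sgAURKA library lay within the Vector range, at a log2 fold change of -0.15 (SE 0.0765; edgeR adjusted p = 0.363), or -0.074 with the GC offset and -0.079 without Vector 2.

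SESN3, which FOXO factors also drive, had 42.8 to 44.7 CPM in sgAURKA and 39.6 to 45.4 CPM in Vector libraries, a log2 fold change of 0.05 (SE 0.0649). PRKAB1, a subunit of the energy sensor AMPK, had 36.5 to 38.0 CPM in sgAURKA and 36.6 to 38.8 CPM in Vector libraries (-0.02, SE 0.0608). TIGAR, a phosphatase that slows glycolysis, averaged 14.9 ± 1.15 CPM in sgAURKA and 15.6 ± 0.388 CPM in Vector libraries (SD, n = 3 each; log2 fold change -0.07, SE 0.083). Their edgeR adjusted p values were 0.734, 0.887 and 0.736. With the GC offset SESN3 was at -0.024 and PRKAB1 at 0.0064, so neither has a settled sign.

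None of the members that repair DNA or supply nucleotides passed the test with all libraries. POLH, the polymerase that copies past ultraviolet lesions, had 68.3, 71.1 and 73.8 CPM in sgAURKA libraries, against 66.8, 63.6 and 67.0 CPM in Vector libraries. DDB2, which finds ultraviolet lesions in chromatin and has the element with 0 mismatches, had 30.3, 32.8 and 32.2 CPM in sgAURKA libraries, against 33.4, 35.9 and 33.4 CPM in Vector libraries. Neither gene's groups overlapped, and the 2 genes lay on opposite sides. POLH had a log2 fold change of 0.11 (SE 0.0559; edgeR adjusted p = 0.346). DDB2 had -0.11 (SE 0.0655; edgeR adjusted p = 0.446).

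XPC, which recognises DNA damage in nucleotide excision repair, averaged 36.4 ± 0.531 CPM in sgAURKA and 35.6 ± 0.879 CPM in Vector libraries (SD, n = 3 each). RRM2B, the p53-inducible subunit of ribonucleotide reductase, had 43.2, 43.8 and 47.6 CPM in sgAURKA libraries and 38.0, 37.5 and 49.2 CPM in Vector libraries. Vector 3 alone lay above the sgAURKA values. The log2 fold change was 0.11 (SE 0.0912; edgeR adjusted p = 0.585) with all libraries. Without Vector 3, where 15.3% of all genes were called, it was 0.25 (edgeR adjusted p = 0.0144). The GC offset gave 0.031, and leaving out Vector 1, Vector 2 or sgAURKA 3 gave 0.046, 0.043 and 0.064.

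FDXR and TP53I3 act in mitochondria and redox balance, and the CPM of both lay lower in every sgAURKA library. FDXR, a reductase that passes electrons to ferredoxin, had 5.20, 5.72 and 5.53 CPM in sgAURKA libraries, against 6.43, 6.51 and 5.75 CPM in Vector libraries. TP53I3, a quinone oxidoreductase also called PIG3, had 17.0, 15.7 and 17.2 CPM in sgAURKA libraries, against 17.5, 18.4 and 18.2 CPM in Vector libraries. In both genes the nearest libraries of the groups almost met. The log2 fold change of FDXR was -0.18 (SE 0.118; edgeR adjusted p = 0.464) and that of TP53I3 -0.12 (SE 0.0763; edgeR adjusted p = 0.477). With the GC offset they were -0.074 and -0.055. In the authors' FPKM the groups of both genes overlapped. TP53I3 had 14.39, 13.72 and 13.82 FPKM in sgAURKA libraries and 13.94, 14.24 and 14.03 FPKM in Vector libraries, a difference of -0.0092 on log2(FPKM + 1).

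Among the proteins named for their induction by p53, TP53INP1, which promotes autophagy and p53 phosphorylation, had 144, 148 and 153 CPM in sgAURKA libraries and 134, 124 and 151 CPM in Vector libraries. Vector 3 again lay within the sgAURKA range. Its log2 fold change was 0.12 (SE 0.0648; edgeR adjusted p = 0.368), or 0.060 without Vector 2 and 0.061 with the GC offset. Without Vector 3, where 15.3% of all genes were called, it was 0.20 (edgeR adjusted p = 0.0102). TP53I13, a membrane protein, had 40.9, 40.7 and 37.5 CPM in sgAURKA libraries and 42.9, 47.1 and 37.5 CPM in Vector libraries. Its groups overlapped, and its log2 fold change was -0.10 (SE 0.0791; edgeR adjusted p = 0.572), or 0.047 with the GC offset, -0.18 without Vector 3 and -0.017 without Vector 2. TP53INP2, an autophagy protein related to TP53INP1, had 43.8 to 45.6 CPM in sgAURKA and 44.4 to 49.6 CPM in Vector libraries, a log2 fold change of -0.07 (SE 0.062; edgeR adjusted p = 0.618). TP53I11 had 5, 6 and 11 expected counts (rounded) in sgAURKA libraries and 9, 4 and 5 in Vector libraries, too few to compare.

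The last group joins survival factors and other effectors. EDA2R, a receptor of the TNF receptor family, had 1.15, 0.327 and 0.434 CPM in sgAURKA libraries and 0.865, 1.14 and 1.29 CPM in Vector libraries. One sgAURKA library lay within the Vector range, and at this depth the values stand for few reads. The log2 fold change was -0.78 (SE 0.388, 95% interval -1.61 to 0.04; edgeR adjusted p = 0.336), or -1.51 without sgAURKA 1 and -0.47 without sgAURKA 2. RPS27L is a close relative of the ribosomal protein RPS27, and whether its counts include reads of that gene was not tested. It had 31.6, 33.0 and 32.8 CPM in sgAURKA libraries and 33.6, 32.3 and 38.4 CPM in Vector libraries. Its groups overlapped, at a log2 fold change of -0.10 (SE 0.0729; edgeR adjusted p = 0.518), or -0.026 without Vector 3.

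AEN, a nuclease induced by p53, gave the smallest difference of the 28 tested members, 68.9 ± 1.23 CPM in sgAURKA and 69.0 ± 3.68 CPM in Vector libraries (SD, n = 3 each). Its 95% interval ran from -0.12 to 0.12 on the log2 scale. ZMAT3, an RNA-binding protein that alters splicing, had 21.4 to 22.7 CPM in sgAURKA and 20.6 to 24.0 CPM in Vector libraries (log2 fold change -0.04, SE 0.0767; -0.10 with the GC offset). TRIAP1, a small survival protein of mitochondria, had 22.0 to 23.9 CPM in sgAURKA and 21.9 to 26.6 CPM in Vector libraries (-0.10, SE 0.0805; -0.033 without Vector 3). Their edgeR adjusted p values were 0.826 and 0.585. PHLDA3, an inhibitor of AKT, had 2 to 11 expected counts in sgAURKA and 5 to 9 in Vector libraries and was not tested. The 6 members with a p53 element beside their start, MDM2, AEN, SESN1, FDXR, RPS27L and DDB2, ran from -0.29 to 0.09. MDM2 alone was above 0, and AEN, at -0.0021, changed sign with the GC offset (0.041).

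Levels of different members can be compared only per transcript length, for which the authors' FPKM values serve. BTG2 averaged 183 ± 4.66 FPKM in sgAURKA and 169 ± 4.24 FPKM in Vector libraries (SD, n = 3 each). GADD45B came next at 55.5 ± 1.51 FPKM in sgAURKA and 60.5 ± 4.91 FPKM in Vector libraries, followed by RPS27L, TP53I13 and TP53INP1 at means of 31.5, 25.5 and 25.0 FPKM over all libraries. TP53I13 and TP53INP1 differed by less than the spread between libraries. MDM2 and MDM4 lay in the middle, at 8.86 ± 0.512 and 8.56 ± 0.37 FPKM in sgAURKA and 8.35 ± 1.09 and 7.24 ± 0.603 FPKM in Vector libraries. SESN1 and FDXR were lower, at means of 3.15 and 2.96 FPKM over all libraries, and TP53I11, PLK2, EDA2R and PHLDA3 were below 0.5 FPKM on average.

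**Figure D3:**
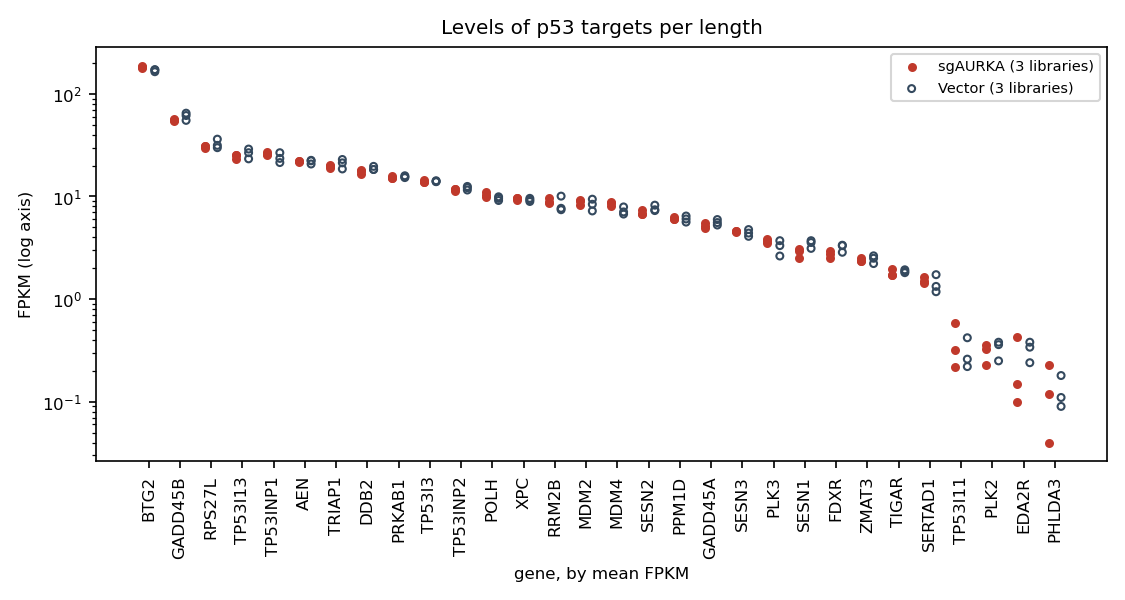
FPKM of the 30 p53 targets with a row in the gene table, on a log axis, ordered by their mean. Filled points are sgAURKA libraries and open points Vector libraries. BTG2 stands highest at 183 FPKM in sgAURKA and 169 FPKM in Vector libraries, and the 4 genes at the right fall below 0.5 FPKM on average.

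A list of 30 symbols for regulators of the pathway held kinases, cofactors, ubiquitin enzymes and ribosomal proteins that bind MDM2. The list named COP1 also by its older symbol, RFWD2, which had no row. Of its 28 tested genes, 1 was lower and 0 were higher at an adjusted p of 0.05, beside 2.03% of all genes. That 1 was AURKA, which the list holds because its kinase acts on p53. CHEK1, a kinase of the replication checkpoint, was at 0.16 (edgeR adjusted p = 0.187) and PPP1R13L, the p53 inhibitor iASPP, at -0.28 (edgeR adjusted p = 0.184). The median log2 fold change of the regulators was 0.03.

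A second list held 46 further p53 targets, likewise grouped as outside apoptosis. Of its 36 tested genes 0 were higher and 1 was lower at an adjusted p of 0.05, beside 2.03% of all genes. ZNF385A, a zinc finger protein that steers p53 towards arrest genes, had 6.67, 5.34 and 5.80 CPM in sgAURKA libraries, against 8.38, 9.71 and 8.32 CPM in Vector libraries. Its groups did not overlap, and it fell by 0.57 on the log2 scale (SE 0.118; edgeR adjusted p = 0.0203). The call was lost without Vector 1, Vector 2, sgAURKA 2 or sgAURKA 3 (edgeR adjusted p = 0.0649, 0.0517, 0.140 and 0.116), at values from -0.60 to -0.49. EPS8L2, an actin regulator, was at -0.30 (edgeR adjusted p = 0.0994), and NINJ1, which ruptures membranes of dying cells, at 0.23 (edgeR adjusted p = 0.201). The median of this list was -0.02. Of 12 tested targets for arrest and cell death that were left out of the members, 2 passed the test, beside 2.03% of all genes. They were CDKN1A, lower at -0.86 (edgeR adjusted p = 2.04e-04), and FAS, higher at 0.31 (edgeR adjusted p = 0.00735). The FAS call was lost without Vector 1 (adjusted p = 0.0683) or sgAURKA 3 (adjusted p = 0.0775). TNFRSF10A, a receptor for TRAIL, was next at 0.26 (edgeR adjusted p = 0.115). Its edgeR adjusted p was 0.04 without Vector 3, at 15.3% of all genes called, and 0.0287 with the GC offset, at 6.01% called.

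Expected counts of single transcripts were far less precise than those of genes. The median SE of a log2 fold change was 0.442 over 74 tested member transcripts and 0.0764 over the 28 members. No member transcript passed an adjusted p of 0.05 in edgeR, where 0.00227% of 43979 transcripts passed. At an unadjusted p under 0.05 there were 2 member transcripts, 1 each of RRM2B and BTG2. The DESeq2 Wald test called 1 of them, that of RRM2B, beside 2.04% of 43589 transcripts.

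That RRM2B transcript, NM_001172477.1, had 374, 360 and 462 expected counts in sgAURKA libraries, against 215, 163 and 214 in Vector libraries. All sgAURKA values were above all Vector values. The log2 fold change was 1.0 (SE 0.171; edgeR adjusted p = 0.432; DESeq2 adjusted p = 2.8e-06), and the authors' deposited table gives 1.0 with a q-value of 2.81e-04. The other RRM2B transcripts did not follow. NM_015713.4 had 349, 283 and 416 expected counts in sgAURKA libraries and 366, 494 and 248 in Vector libraries. NM_001172478.1 was at 0 in 1 sgAURKA and 1 Vector library and reached 454 in Vector 3. The expected counts of the gene were divided differently among its transcripts from library to library, and the cause was not tested.

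The TP53I3 transcripts had lower counts. NM_147184.3 had 35, 28 and 36 expected counts in sgAURKA libraries, against 65, 52 and 70 in Vector libraries (log2 fold change -0.93, SE 0.407). NM_001206802.2, the most abundant transcript of the gene, had 184, 186 and 164 expected counts in sgAURKA libraries, against 158, 155 and 149 in Vector libraries. The groups did not overlap for either transcript, in opposite directions, and neither passed the test (edgeR adjusted p = 1.0 for both; DESeq2 adjusted p = 0.119 for the first). MDM2 transcripts were divided unevenly between libraries. XM_006719400.4 had 254, 313 and 294 expected counts in sgAURKA libraries and 422, 344 and 308 in Vector libraries. NM_002392.5 had 340, 261 and 289 expected counts in sgAURKA libraries and 0, 135 and 0 in Vector libraries, although the gene's total did not pass the test.

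**Figure D4:**
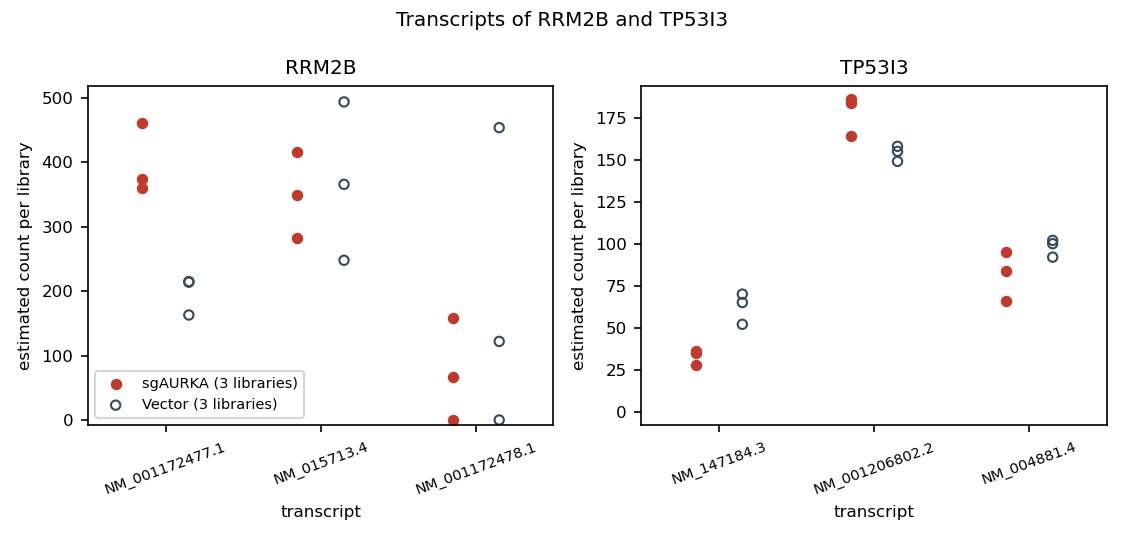
Expected counts per library of 3 transcripts each of RRM2B and TP53I3. Filled points are sgAURKA libraries and open points Vector libraries. NM_001172477.1 of RRM2B lies at 360 to 462 in sgAURKA and 163 to 215 in Vector libraries, while the other RRM2B transcripts overlap.

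The authors' deposited transcript table also gives a comparison of an NSD2 guide with the same Vector libraries, and NSD2 libraries were not analysed here. The comparisons share their control samples, so their values are set side by side without a test of the difference. Of all transcripts in the authors' deposited table, 1.55% passed a q-value of 0.05 for the AURKA guide and 1.78% for the NSD2 guide. For 15 members 1 transcript held at least 90% of the gene's counts, and none of these 15 passed for the AURKA guide in the authors' deposited table, where BTG2 alone had an unadjusted p under 0.05 (0.0107), while 1 passed for the NSD2 guide. That 1 was BTG2, at 0.57 for the NSD2 guide (q = 5.56e-43) and 0.10 for the AURKA guide (q = 0.340) in the authors' deposited table. The authors' deposited table gives -0.13 for GADD45B with the AURKA guide and 0.14 with the NSD2 guide, and for SESN2 -0.27 and -0.22. DDB2 was at -0.04 with each guide in the authors' deposited table. Its gene comparison for the AURKA guide is in effect a list of calls (229 of its 231 genes have a q-value under 0.05), and 0 of the members are among them.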

How the data were processed

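Per the labels, libraries of LP-1 RNA followed a BGISEQ-500 protocol. The submitters' processing notes name RSEM, Bowtie2, BWA and the build hg19, and roles, versions and strandedness were not given in the sources used here. For each gene and transcript the authors deposited expected counts (44.8% of the gene values are not whole, to within 0.001), FPKM and TPM, per the file headers; TPM was not used. The authors' deposited comparison tables hold log2 fold changes, p-values and q-values. Expected counts were rounded and tested in edgeR 4.0.16 (R 4.3.3): filterByExpr, TMM scaling, the quasi-likelihood F test, group as the only term and Benjamini-Hochberg adjustment over all features, called at an adjusted p under 0.05. CPM uses the TMM-scaled library size. The labels do not say that replicates came from separate cultures, so the spread behind each p-value may be technical. Replicates differed by more than counting noise (chi-square per gene from 2.30 to 11.1). Values per library are given for MDM2, MDM4, RRM2B and the 2 members with the smallest p in each role group, and other members by mean or range; from other lists, members called and the 3 smallest p values. Some results are not reported here. The values of PLK3 and RRM2B, and transcripts beyond the 6 with the smallest p, were described after they were seen. The members and lists were chosen with earlier results of these data known. The scripts were tested on simulated data. GC content came from GENCODE release 29 transcripts for 12814 of the tested genes, and promoter sequences from RefSeq (GRCh38.p14), with no coordinates converted; 4 members in the table had no promoter entry (GADD45A, PHLDA3, RRM2B and TP53INP1). Alternatives were a replicate block, each library left out, no low-count filter or a mean of 10 CPM, DESeq2 size factors, library size alone, DESeq2 1.42.0, limma 3.58.1 on log2(FPKM + 1) or log2(FPKM + 0.1) with 0.5 FPKM in 3 samples, and a GC offset (natural spline, 5 degrees of freedom) with and without the block.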

Additional observations from a re-analysis of the deposited data

How the results depend on the processing

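The count of 0 members called became 1 with a replicate block, 1 with the DESeq2 Wald test, 3 with the GC offset and 3 with the GC offset and replicate block; over the fits that leave out 1 library each it was 0 to 4. All genes called numbered 267 (2.03%), against 385 (2.93%) with a replicate block, 789 (6.01%) with the GC offset and 885 (6.74%) with the GC offset and block. With 1 library left out they numbered 98 to 2034, the most (15.3%) without Vector 3. The further targets called numbered 1, against 0 at a mean of 10 CPM or more, 2 with each GC setting and 0 to 5 with 1 library left out. Regulators called numbered 1, against 2 and 3 with the GC offset without and with the block and 1 to 6 with 1 library left out, and the arrest and apoptosis targets 2, against 4 with each GC setting and 1 to 4. The 1 transcript called (of IGFBP3) became 0 with a replicate block and 0 with any library left out, and 891 by DESeq2, which called 1 member transcript where edgeR called 0. Without Vector 3 the members called were MDM4, GADD45B, RRM2B and TP53INP1, 4 of 28 beside 15.3% of all genes. With each GC setting they were MDM4, SESN1 and BTG2, 3 of 28 beside 6.01% and 6.74%. Replicate numbers did not pair the libraries: same-numbered libraries' deviations correlated at 0.073, -0.11 and 0.17, and sgAURKA 1 correlated best with Vector 2. The block made MDM4 a call (adjusted p = 0.0338, log2 fold change 0.24).

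Changes of sign were confined to members that passed no test there. SESN3 was at -0.024 in both GC settings, TP53I13 at 0.047 in both, and PPM1D at -0.015 and -0.014. PRKAB1 was at 0.0064 in both GC settings, and AEN at 0.041 in both, 0.0034 with library size alone, 0.0071 on log2(FPKM + 1) and 0.0074 on log2(FPKM + 0.1). With 1 library left out, ZMAT3 ran from -0.10 to 0.0041, AEN from -0.049 to 0.024, PLK2 from -0.27 to 0.069, PPM1D from -0.022 to 0.059, SERTAD1 from -0.02 to 0.28 and PRKAB1 from -0.044 to 0.0015. The causes were not tested. With 3 libraries a group, depth limits PLK2, SERTAD1, EDA2R, TP53I11 and PHLDA3.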

Other observations

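The authors' deposited table called 3 of 119 member transcripts for the AURKA guide, beside 1.55% of all its transcripts. Beside that of RRM2B, it gives 22.09 for NM_001354729.1 of XPC (q = 8.93e-10), whose expected counts were 247 in sgAURKA 1 and 0 in the other 5 libraries, and -8.48 for XM_011517386.2 of TP53INP1 (q = 0.0297), at 0 in all sgAURKA libraries and 72, 0 and 128 in Vector libraries. For the NSD2 guide it called 2 of 121 member transcripts, beside 1.78% of all its transcripts. They were that of BTG2 and XM_024451017.1 of TP53I13, for which the authors' deposited table gives -21.52 (q = 5.58e-07). In the Vector libraries that transcript had 96, 1 and 0 expected counts. Its gene, TP53I13, ran from 37.5 to 40.9 CPM in sgAURKA and from 37.5 to 47.1 CPM in Vector libraries, and XPC from 35.8 to 36.9 CPM in sgAURKA and from 34.7 to 36.5 CPM in Vector libraries.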
